A study of Homo sapiens with 8 samples.

Results

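Chromosome 11 carries more olfactory receptor genes than any other human chromosome, and the reads over them were examined in nascent RNA from 2 colorectal cancer cell lines. Members were all gene models on chromosome 11 whose symbol starts with OR followed by a digit, which gave 160 of 18638 models. They made up 44.4% of the 360 olfactory receptor models on all chromosomes. The series asked what loss of RNA polymerase II, or of topoisomerase II, does to nuclei, and its 8 libraries were made by factory-seq, in which RNA held at sites of transcription is released from nuclei with caspases and sequenced. DLD-1 cells (DLD-1-mAID-mClover-POLR2A(Tet-OsTIR1)) carried an auxin degron on POLR2A, the gene of the catalytic polymerase subunit RPB1, and were compared as 2 untreated and 2 auxin-treated (14 h) libraries. HCT116 cells carried the degron on TOP2A, and 2 untreated TOP2A-mAID libraries were compared with 2 libraries whose genotype is given as TO2B-/--TOP2A-mAID, called TOP2B-/- here. For the TOP2B-/- libraries the sample titles read as control and the treatment field as 14 h of auxin, so genotype and treatment cannot be told apart in that comparison. Depletion was described as doxycycline for 24 h to induce the plant TIR1 protein, then auxin at 500 µM for 14 h. Doxycycline in untreated cells and sorting for G1 in these libraries are not stated. All 8 libraries were titled as asynchronous.

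Olfactory receptors are G protein-coupled receptors that olfactory sensory neurons use to detect odorants. Each such neuron transcribes a single receptor gene at high level and keeps the others silent in compact heterochromatin, and most other tissues transcribe few of them. The genes lie in tandem clusters and usually have a coding region within 1 exon. Class I receptors, the families 51, 52 and 56 among the members, fill a single cluster on the short arm of chromosome 11 that also holds the beta-globin genes, and class II receptors make up the remaining clusters. The 51 class I and 109 class II members fell into 11 clusters when a gap of over 500 kb was taken as a boundary. Of the models, 83 were on the forward and 77 on the reverse strand, and 156 spanned 906 to 1469 bp with a median of 948 bp. The other 4 spanned more than 10 kb (OR51E1, OR51E2, OR51B5 and OR9Q1), so that their counted length was largely intron.

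OR51B5, OR51B2 and OR51B4 carried almost all member reads in HCT116, so their sequences are shown to let a reader see how far reads from these relatives can be told apart. The lines below give an aligned stretch of 63 coding bases, bases 328 to 390 of each coding region (325 to 387 in OR51B4), from Gencode transcripts, with bases that differ from OR51B5 in capitals. OR51B6 is included because it lies inside OR51B5 on the other strand.
OR51B5: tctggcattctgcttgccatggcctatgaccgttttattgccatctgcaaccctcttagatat
OR51B2: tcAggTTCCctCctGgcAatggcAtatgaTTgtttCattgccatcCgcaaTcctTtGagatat
OR51B4: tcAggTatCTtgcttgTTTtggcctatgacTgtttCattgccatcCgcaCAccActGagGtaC
OR51B6: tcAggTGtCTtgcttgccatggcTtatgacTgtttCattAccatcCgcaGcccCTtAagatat
OR51B2 and OR51B4 differed from OR51B5 at 16 of these bases and OR51B6 at 14. Over the whole coding regions the 4 genes were 69.5% to 71.5% identical in pairs and shared no run of 50 bases. Among all members, a coding region could be taken from Gencode for 157, of which 89 shared no run of 50 bases with another olfactory receptor gene and 39 shared more than 10% of theirs. The 5 with more than 50% shared were OR51A4, OR51A2, OR10G4, OR8B2 and OR8B3, and their reads are the least certain. Of the members described below, OR2AG1, OR2AG2, OR4C12, OR5M8, OR5AK2, OR8H2 and OR1S2 also shared more than 10%.

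Start-site sequence was available from RefSeq (GRCh38.p14) for 127 members, as 250 bases before and 50 after the annotated start. OR2D2, a class II receptor gene, is shown because it had the highest level per length among the short members as a mean of the control libraries of each cell line (the OR51B genes aside). The window is chr11:6892451-6892750 on the reverse strand, and capitals mark the only match to TATAAA on either strand.
OR2D2: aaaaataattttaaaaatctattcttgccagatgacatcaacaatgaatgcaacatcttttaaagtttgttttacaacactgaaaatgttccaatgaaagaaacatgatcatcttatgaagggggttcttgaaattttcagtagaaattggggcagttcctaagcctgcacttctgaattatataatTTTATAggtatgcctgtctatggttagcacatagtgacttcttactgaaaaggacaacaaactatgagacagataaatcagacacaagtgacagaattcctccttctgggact
The member windows had a median GC content of 37% and a median of 1 CG dinucleotide, against 58.3% and 14 over 27305 windows of all genes. TATAAA, the core of a TATA box, was present on either strand in 46 of 127 member windows (36.2%) and in 12.0% of all windows. TAATTA, a sequence read by homeodomain factors such as LHX2 and EMX2, was in 31 (24.4%) against 4.98%. CCCNNGGG, a core read by EBF factors, was in 9 (7.09%) against 18.6%. These are letter matches in windows of unequal base composition. In 106 of the 157 members with a coding region the counted model was exactly as long as that region, so that an annotated start need not be where transcription begins. For OR2D2 the annotated start was that of the counted model, and the 50 bases after it begin with atg, the letters of a start codon. Of the 127 windows, 71 had a start within 100 bp of that of the counted model and 56 further away. OR51B5, OR51B2 and OR51B4 had no entry.

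Library totals over all models were 62626875 and 36906755 reads in DLD-1 controls, 14183633 and 10739622 in DLD-1 auxin libraries, and 32129400 to 36491540 in HCT116. Levels per length are given in CPM per kb, where CPM is reads per 1000000 reads of the library. Of 14 colon epithelial markers, at most 1 was at 0 reads in any library, and they summed to 225 to 425 CPM per kb. KRT18 alone gave 112 to 337 CPM per kb of these sums. In HCT116, EPCAM was at 6.03 to 7.78 and CDX2 at 0.576 to 0.739 CPM per kb. CDX1, VIL1, KRT20, CDH17, GPA33 and LGR5 were each at or below 0.0425 CPM per kb in HCT116. The 9 markers of olfactory sensory neurons, of which up to 3 were at 0 reads in a library, summed to 0.175 to 0.482 CPM per kb in HCT116 and to 0.253, 0.624, 3.76 and 3.97 in DLD-1 control 1, control 2, auxin 1 and auxin 2. Since auxin removes the RPB1 protein, the POLR2A reads (218, 149, 194 and 138 CPM in the same order) do not check its loss. TOP2B gave 188, 186, 134 and 134 CPM in HCT116 control 1, control 2, TOP2B-/- 1 and TOP2B-/- 2, lower in the latter (log2 fold change -0.50, SE 0.041, adjusted p = 0.0269 by edgeR). In reads over silent genes DLD-1 control 1 stood apart from control 2, and HCT116 control 2 from control 1, and results that rest on 1 library are given without it. No source says that replicates came from separate cultures, so p-values measure the spread between these libraries, which may be technical. In bulk RNA, fewer transcribing cells and less RNA per cell cannot be told apart.

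In HCT116 the reads over the members came from 3 neighbouring class I genes. Members held 148598 and 136740 reads in the controls and 175230 and 157660 in the TOP2B-/- libraries, or 0.447%, 0.375%, 0.504% and 0.491% of all reads. OR51B5 alone had 146998, 135240, 173507 and 155940, which placed it at ranks 3, 4, 2 and 2 by reads among the 18638 models. Its model is long, 163139 bp on the reverse strand (chr11:5342514-5505652, hg38), and by reads per counted kb it ranked 143, 222, 116 and 119. OR51B5, OR51B2 and OR51B4 together made up 99.8% to 99.9% of member reads in each HCT116 library, against 24.1% to 51.8% in DLD-1.

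**Figure D1:**
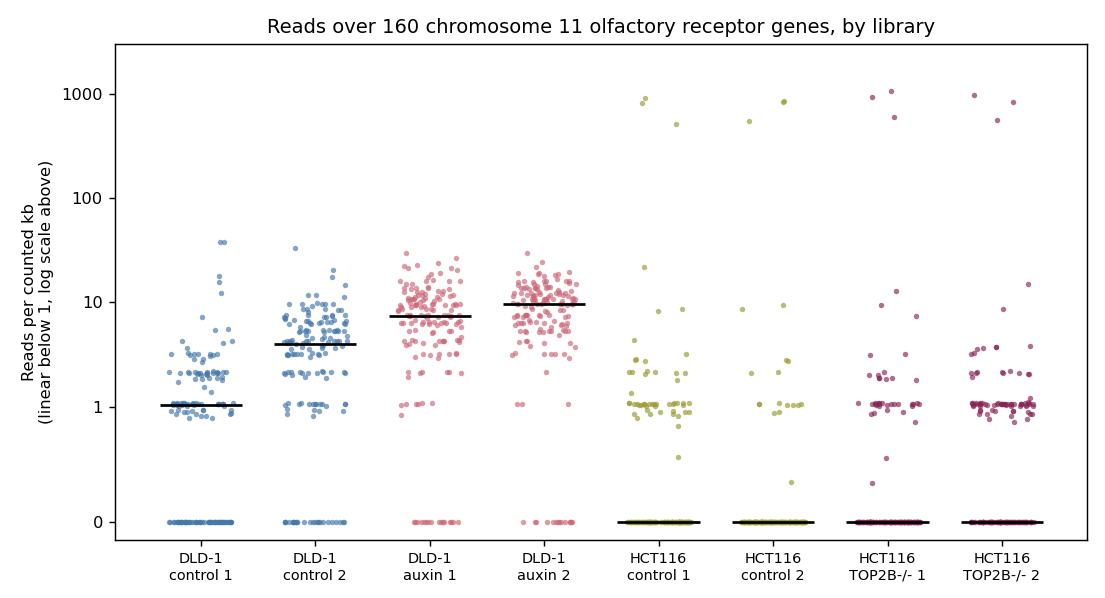
Reads per counted kb of each of the 160 members (points) in each library, on an axis that is linear below 1 and logarithmic above, with the median of members as a black bar. In HCT116 the medians are 0 and 3 genes (OR51B5, OR51B2 and OR51B4) lie above 500 reads per kb, whereas in DLD-1 the medians are 1.04, 3.94, 7.38 and 9.52 and no member reaches 40.

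OR51B2 (chr11:5323298-5324352) lies on the same strand 18.2 kb past the annotated end of OR51B5, and OR51B4 (chr11:5301014-5301946) lies 40.6 kb past it. OR51B5 had 907 and 834 reads per kb in the controls and 1070 and 962 in the TOP2B-/- libraries. OR51B2 had 823, 848, 935 and 841 reads per kb in the same order, or 868, 895, 986 and 887 reads. OR51B4 had 511, 548, 597 and 555 reads per kb, or 477, 511, 557 and 518 reads. Over the 4 libraries, the mean density of OR51B2 was 91.3% and that of OR51B4 58.6% of the density of OR51B5.

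The density went on falling with distance into the beta-globin genes, which lie further along on the same strand. HBE1, the embryonic globin 72.4 kb past the end of OR51B5, had 109, 148, 116 and 128 reads per kb (13.3% of OR51B5). HBG2, a fetal globin at 87.7 kb, had 38.3, 34.6, 27.03 and 35.8 (3.60%), and HBG1 at 92.7 kb had 5.67, 3.78, 2.52 and 1.89 (0.368%). Adult HBB had 1 to 3 reads in each library (0.132%), and the next receptor gene, OR51V1, had 1 read in 4 libraries. On the other side, UBQLNL, upstream of the annotated start of OR51B5 and on the same strand, had 6 to 11 reads. The raised density thus spanned OR51B5 and its downstream neighbours, and its level dropped at each step from OR51B2 to HBG1.

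**Figure D2:**
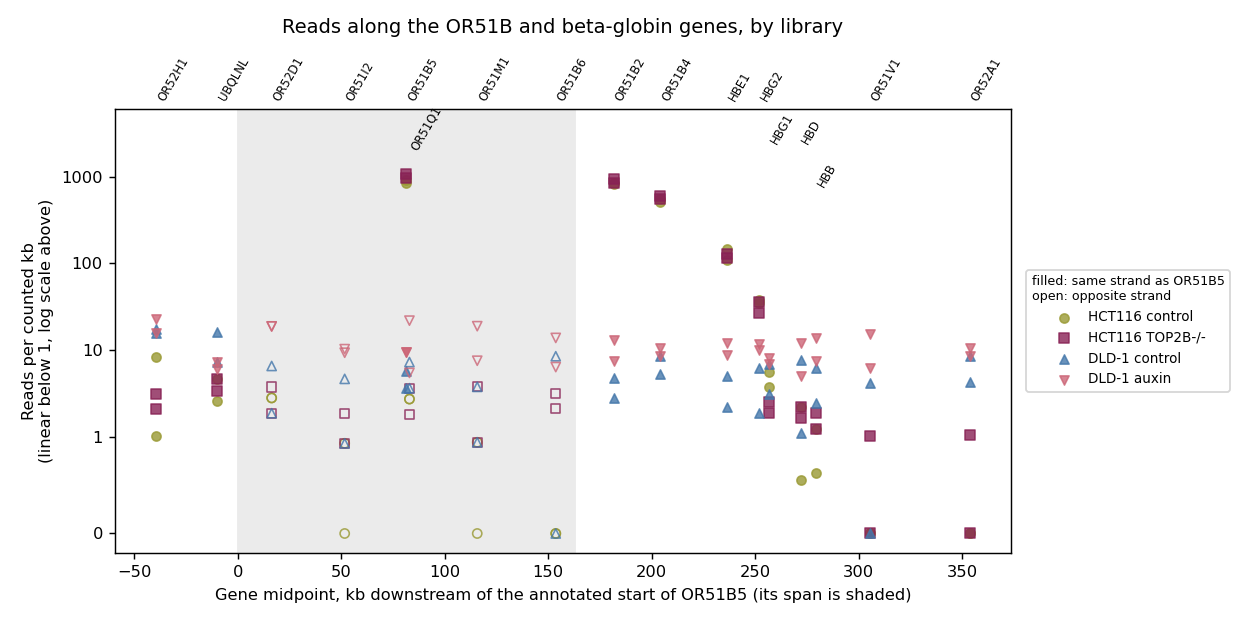
Reads per counted kb of genes around OR51B5 in each library, on an axis linear below 1 and logarithmic above, against distance of the gene midpoint from the annotated start of OR51B5 in kb. In HCT116 (circles and squares) filled symbols on the OR51B5 strand step down from 823 to 1070 at OR51B5 and OR51B2 to 1.89 to 5.67 at HBG1, open symbols on the other strand stay below 4, and in DLD-1 (triangles) no gene shown exceeds 23.

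The 5 receptor genes OR51B6, OR51M1, OR51Q1, OR51I2 and OR52D1 lie inside the OR51B5 model on the forward strand. Together they had 7, 7, 10 and 15 reads in the 4 HCT116 libraries, or 1.34, 1.34, 1.91 and 2.87 per kb, beside 834 to 1070 per kb over OR51B5 itself. The sources used here do not state whether counting used strand. Where 2 models overlapped on the same strand, the counted length was below the span in 156 of 156 models, and where they overlapped on opposite strands alone, in 181 of 2126. Whether the low counts of the nested genes come from strand or from dropping of reads that hit 2 models cannot be told apart.

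Between TOP2B-/- and control libraries no member was called by edgeR. Of the 160, 8 passed the filter on low counts (OR51E1, OR51E2, OR51B4, OR51B2, OR51B5, OR6A2, OR2D2 and OR9Q1), and over all 15273 models tested 1.75% were called higher and 1.66% lower (3.41% in either direction). OR51B5 was the 1 member past an unadjusted threshold of 0.05, and DESeq2 called that member alone. OR51B5 was at 25.1 ± 3.12 CPM per kb in controls and 30.4 ± 0.613 in TOP2B-/- (SD, n = 2), a log2 fold change of 0.26 (SE 0.082, adjusted p = 0.184 by edgeR). With DESeq2 it was 0.24 (adjusted p = 0.0239). With 1 library left out, edgeR gave 0.35 without control 1 and 0.093 without control 2. It gave 0.17 without TOP2B-/- 1 and 0.29 without TOP2B-/- 2. OR51B2 stood at 24.0 ± 1.06 and 26.5 ± 0.518 (log2 fold change 0.12, adjusted p = 0.431) and OR51B4 at 15.2 ± 0.263 and 17.2 ± 0.0685 (0.16, adjusted p = 0.426). For all 3 genes both TOP2B-/- libraries lay above both controls in CPM, as they did for 16 of 160 members, beside 28.2% of all models, and no member lay below, beside 22.7% of all models. Scaled to silent genes, the log2 fold changes of OR51B2 and OR51B4 turned to -0.06 and -0.03 and that of OR51B5 fell to 0.08.

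The remaining members were near the floor in HCT116. In the controls and TOP2B-/- libraries 53, 19, 42 and 78 members had any read, and 53 members had none in all 4. The 154 short members other than OR51B2 and OR51B4 had 104, 40, 77 and 125 reads over 150 kb of counted length. Control 2 was the lowest, at 0.266 reads per kb (95% Poisson interval 0.190 to 0.363), and TOP2B-/- 2 the highest, at 0.833 (0.693 to 0.992). These intervals cover counting error only. Olfactory receptor genes on other chromosomes gave 0.583, 0.311, 0.437 and 0.734 reads per kb in the same libraries, in the same order of libraries. The highest short members were OR2D2 with 20, 8, 12 and 14 reads and OR6A2 with 12, 13, 13 and 12 reads, neither of which passed the threshold (log2 fold changes -0.08 and 0.04, SE 0.87 and 0.75, adjusted p = 0.957 and 0.978).

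Among the long members in HCT116, OR9Q1 had 130 and 54 reads in controls and 87 and 159 in TOP2B-/-, so that the groups overlapped (log2 fold change 0.45, SE 0.61, adjusted p = 0.685). OR51E1, which many tissues outside the nose transcribe, had 11, 0, 10 and 14 reads, and OR51E2, known as a prostate-enriched receptor gene, had 10, 0, 6 and 17. For both, control 2 was at 0 and control 1 within the range of the TOP2B-/- libraries (adjusted p = 0.718 and 0.711).

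In DLD-1 no member had a level near that of OR51B5 in HCT116, and reads were spread over most members. Members held 1155 and 2306 reads in controls and 6526 and 5323 in auxin libraries, or 0.00184%, 0.00625%, 0.0460% and 0.0496% of all reads. The number of members with a read was 102, 135, 144 and 146. The 154 short members gave 1.94 (95% Poisson interval 1.73 to 2.18), 4.34 (4.02 to 4.69), 7.85 (7.41 to 8.31) and 9.09 (8.61 to 9.58) reads per kb. Reads over them were thus more numerous in the libraries with the lower totals. In CPM per kb, the level was 0.0744 ± 0.0612 in controls and 0.700 ± 0.207 in auxin libraries (SD, n = 2 each), and control 1 (0.0311) and control 2 (0.118) were far apart.

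The same order of libraries was present outside the members. The 197 short olfactory receptor genes on other chromosomes had 1.67, 3.18, 6.14 and 6.49 reads per kb. Silent genes were taken as the 3103 models of at least 5000 bp in the lowest 20% of reads per kb in the controls of the other cell line, and their median was 1.23, 2.92, 4.91 and 5.62 reads per kb. The density of the short members, as summed reads over summed length, was 1.58, 1.49, 1.60 and 1.62 times that median. This ratio sets a pooled density against a median of single genes. Forms of the ratio with the same measure on both sides were higher after auxin. Total reads over total length of all 160 members, long models included, were 0.551, 1.00, 2.36 and 1.79 times those of the silent genes, or 0.456, 0.964, 1.44 and 1.46 without members that overlap another model. The median of all members was 0.844, 1.35, 1.505 and 1.70 times that of the silent genes, so that control 1 was the lowest library in all 3 of these forms. In HCT116 the ratio of the short members was 1.31, 3.06, 1.33 and 0.966, where the high value belonged to control 2 with 40 reads. The median of all models went the other way in DLD-1, from 27.2 and 16.8 reads per kb in controls to 8.43 and 7.43 after auxin, so that the short members lay above the median of all models in auxin 2 alone.

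**Figure D3:**
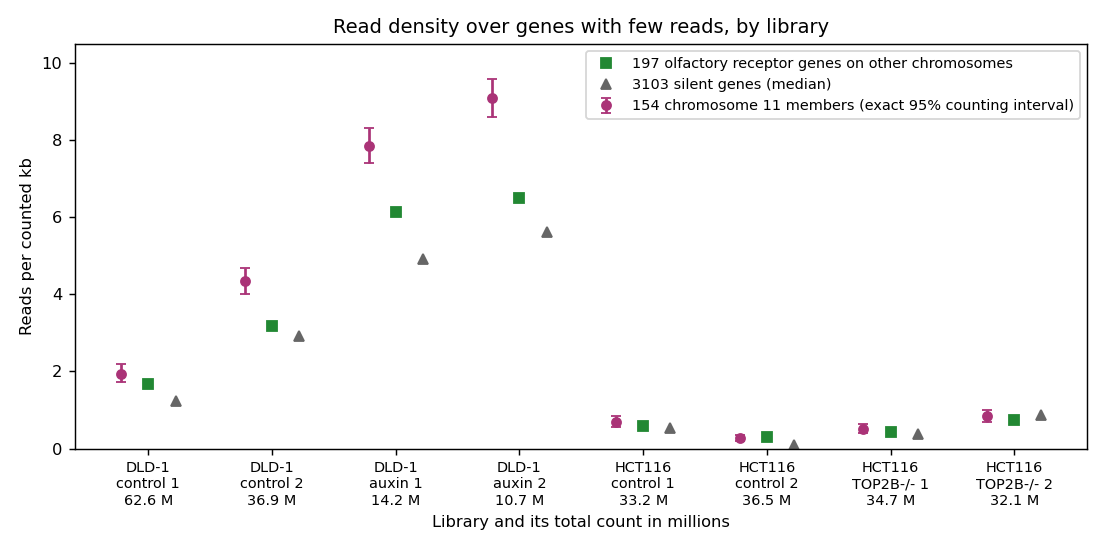
Reads per counted kb in each library, pooled over the 154 short members (circles, bars give the exact 95% counting interval) and over the 197 short olfactory receptor genes on other chromosomes (squares), and as the median of 3103 silent genes (triangles), with library totals under the names. In DLD-1 all 3 rise from control 1 through auxin 2 while the total falls, and in HCT116 all stay below 1.

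In the edgeR comparison of auxin with control libraries in DLD-1, 47 members were called higher and none lower, beside 32.2% of 17625 models called higher and 35% called lower. Members called lower were 0 also at an unadjusted p under 0.05 and by DESeq2, and 58 were higher at an unadjusted p under 0.05, while DESeq2 called 39 higher. Of the 160 members, 93 passed the filter on low counts and 67 did not. For 88 of the 93 the cutoff was met in both auxin libraries and not in both controls, so that these passed through their auxin reads. The filter thus favoured members that are higher after auxin. The 47 calls, 44 of which are among the 88, are no independent measure of how many members changed. The 5 that met the cutoff in both controls were OR51E2, OR51B5, OR6A2, OR2D2 and OR9Q1, of which OR51E2, OR51B5 and OR9Q1 were called higher. The median log2 fold change of the 93 was 3.02, and 3.02 with OR2AG1 (0 reads in both controls) at its lower bound, beside -0.06 over all models tested. Calls were lost with fewer libraries: without auxin 1 or without auxin 2 no member was called (13 and 2 at an unadjusted p under 0.05), and 2393 and 3165 models were called in all, while 62 were called without control 1 and 92 without control 2. Scaling to silent genes gave 31 members called higher and 3 lower, with a member median of 1.40 beside -1.80 over all models, and scaling by library totals moved the median of all models to 0.57.

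Without any filter, 139 of 160 members (86.9%) had a higher CPM in both auxin libraries than in either control, beside 56% of all models and 160 of the 200 olfactory receptor genes on other chromosomes (80.0%). A single member lay below, OR4C11 with 2 and 1 reads in controls and none after auxin, beside 30.4% of all models, and 20 overlapped or were at 0. Both controls were at 0 for 17 members, 3 of which had reads in both auxin libraries (OR2AG1, OR4P4 and OR5B21).

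The largest rises belonged to members that were almost unread in controls. OR9Q2, a class II gene at chr11:58190434-58191518, had 1 and 1 reads in controls and 32 and 32 after auxin. From summed reads scaled by library totals this was a ratio of 128 (exact 95% counting interval 34.0 to 1078). By edgeR the log2 fold change was 6.12 (SE 0.71), with an adjusted p of 0.00513, the lowest among members. OR9Q2 met the count cutoff in the auxin libraries alone, so this p-value is no independent support for its rise. OR2AG1 had 0 and 0 against 9 and 12 reads, at least 13.6-fold higher against a floor of 3 reads per control library. OR56A3 (0, 1, 11 and 12 reads), OR8H2 (1, 0, 13 and 9), OR2D3 (0, 1, 12 and 6) and OR8K5 (0, 1, 6 and 9) followed, each with 1 control read in all. Scaled by library totals, their ratios were 59.9 to 91.9, with intervals that reach down to 9.22 to 14.9. Their log2 fold changes by edgeR were 4.82 to 5.42. Like OR9Q2, they met the count cutoff only in the auxin libraries. The 3 members nearest to the median were OR5B3 (1, 5, 7 and 14 reads), OR1S2 (0, 6, 16 and 7) and OR51I2 (1, 5, 10 and 11), none of which passed the threshold (adjusted p = 0.0628, 0.105 and 0.0518).

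OR9Q1, whose model of 157686 bp lies just before OR9Q2 on the same strand (chr11:58023881-58181566), gave the most reads of any member in DLD-1 auxin libraries. It had 217 and 563 reads in controls and 3523 and 2135 after auxin, or 0.0597 ± 0.0532 and 1.43 ± 0.224 CPM per kb (SD, n = 2). By edgeR the log2 fold change was 3.98 (SE 0.74, adjusted p = 0.0143). OR9I1, nested in it on the other strand, had 1, 4, 3 and 9 reads. OR9Q1 kept its call when scaled to silent genes (2.51, adjusted p = 0.00108) and lost it without auxin 1 or auxin 2 (adjusted p = 0.0991 and 0.0872).

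OR51B5 rose as well, but from a low base. It had 590 and 934 reads in DLD-1 controls and 1554 and 1564 after auxin, or 3.64, 5.76, 9.59 and 9.65 reads per kb (log2 fold change 2.26, SE 0.48, adjusted p = 0.0194), and it lost the call when scaled to silent genes (0.66, adjusted p = 0.351). Its density in DLD-1 was close to that of OR51B2 (3, 5, 8 and 14 reads, 2.84 to 13.3 per kb) and of HBE1 (9, 4, 16 and 22 reads), without the steps present in HCT116. OR51B2 was called (2.73, SE 0.86, adjusted p = 0.0426), but it met the count cutoff in the auxin libraries alone. It was not called by DESeq2 (adjusted p = 0.0706) or when scaled to silent genes (1.05, adjusted p = 0.213). OR51B4, with 5, 8, 8 and 10 reads, was not called by edgeR (1.73, SE 0.78, adjusted p = 0.104). The level of OR51B5 in HCT116 and DLD-1 comes from tables made separately, and the difference between the lines was not tested.

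The other long members were OR51E2 and OR51E1, neighbours in the class I cluster. OR51E2 had 27, 71, 151 and 152 reads (log2 fold change 2.80, SE 0.76, adjusted p = 0.0310), and OR51E1 had 21, 73, 103 and 84 (2.12, SE 0.86, adjusted p = 0.0795), short of the threshold. OR51E2 lost its call when scaled to silent genes (1.27, adjusted p = 0.0528). OR51E1 was called by DESeq2 (adjusted p = 0.0318) and under the replicate block (adjusted p = 0.0333). In both genes control 2 lay nearer to the auxin libraries in reads than control 1 did. OR52B2, a class I gene with 12, 5, 23 and 12 reads, was called (2.38, SE 0.63, adjusted p = 0.0293), and it lost the call when scaled to silent genes. Like OR51B2, it met the count cutoff in the auxin libraries alone.

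Of the 4 short members with the highest level in DLD-1 controls, 3 lay on 1 strand of a cluster of 8 genes (chr11:6768007-6921994). These had fewer raw reads after auxin, in libraries whose totals were also lower. They are the reverse-strand genes OR2AG2 (17, 14, 6 and 5 reads), OR6A2 (52, 28, 14 and 17) and OR2D2 (35, 31, 9 and 14). Their log2 fold changes were -0.17 (adjusted p = 0.813), 0.03 (adjusted p = 0.956) and -0.18 (adjusted p = 0.803), none past the threshold, and under scaling to silent genes all 3 were called lower (-1.86, -1.77 and -1.90), while under library totals all 3 were positive (0.45, 0.68 and 0.46). OR2AG2 and OR2D2 were the 2 tested members with a negative log2 fold change. The 3 genes together had 31.9, 22.4, 8.89 and 11.04 reads per kb in DLD-1 and 10.4, 7.05, 9.81 and 8.89 in HCT116. The 5 forward-strand genes interleaved with them, which include OR2AG1 and OR2D3, had 0.206, 2.47, 10.7 and 10.1 in DLD-1 and 0, 0, 0 and 0.618 in HCT116. In untreated cells of both lines the reads of this cluster were thus mostly on the reverse-strand genes (104 of 105 and 73 of 85 in DLD-1, all 34 and all 23 in HCT116), and after auxin in DLD-1 both strands were at about 10 reads per kb. OR6A2 and OR2D2 shared no run of 50 bases with another olfactory receptor gene. Other members with a high level in DLD-1 controls were OR52H1 (15, 17, 22 and 15 reads, log2 fold change 1.47, adjusted p = 0.0788) and OR51A7 (2, 11, 13 and 9 reads, 1.89, adjusted p = 0.165).

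Reads were found in 10 of the 11 clusters in each DLD-1 library, untreated or auxin-treated. In the class I cluster the short members had 2.14, 5.07, 9.53 and 11.8 reads per kb in DLD-1, and the class II members had 1.86, 4.02, 7.11 and 7.87. The largest class II cluster, 44 genes from OR4A16 to OR5AK2 (chr11:55343201-56989843), had 0.892, 3.78, 6.12 and 7.47, and the 21 genes near the end of the long arm, from OR6X1 to OR8A1, had 1.20, 2.65, 5.64 and 6.39. The order of the libraries was the same in each of these sets. Of the tested genes, 21 of 41 class I and 26 of 52 class II members were called higher, beside 32.2% of all models tested. The tested members had median log2 fold changes of 2.75 and 3.12. Most of them met the count cutoff in the auxin libraries and not in both controls, so these counts do not measure how many members changed.

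**Figure D4:**
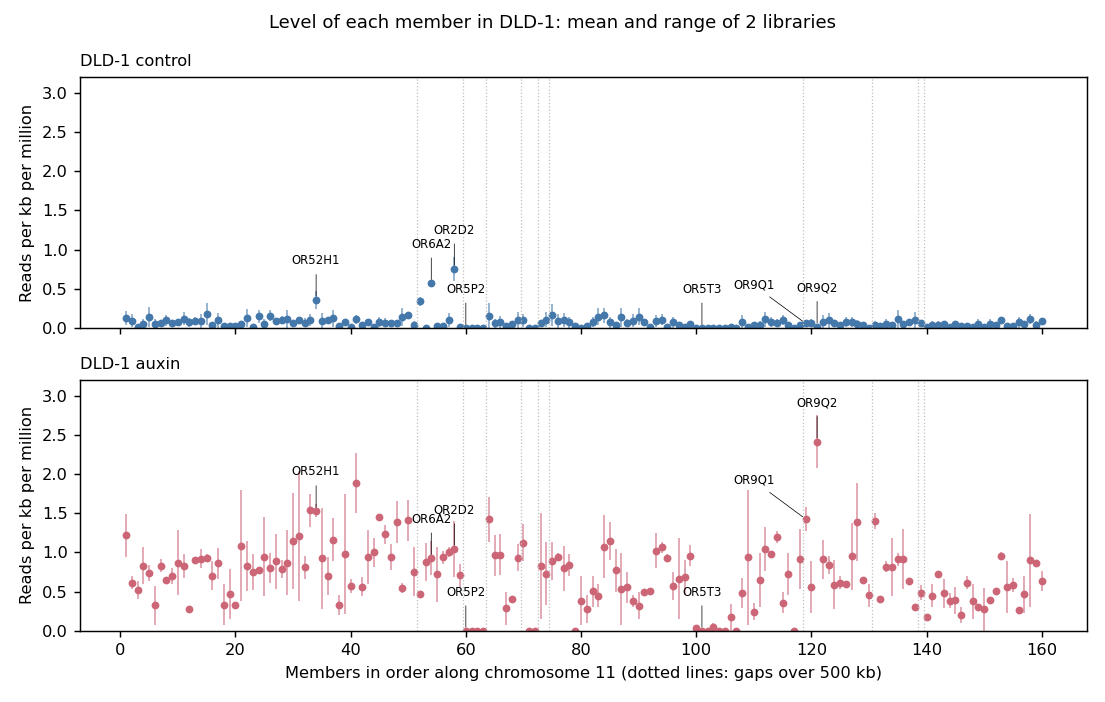
Level of each of the 160 members in DLD-1 control (upper) and auxin (lower) libraries in CPM per kb, in order along chromosome 11, with points for the mean and lines for the range of 2 libraries and dotted lines at gaps over 500 kb. OR2D2 and OR6A2 stand out in controls, OR9Q2 is highest after auxin at 2.41, and the genes from OR5P2 and around OR5T3 stay at or near 0 in both.

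In all, 11 members had no read in any of the 8 libraries, and 9 of them lay in 2 blocks. The 4 genes from OR5P2 to OR10A3 (chr11:7795974-7939520), a whole cluster of its own, had 0 reads in 8 libraries over 3.80 kb of counted length, while OVCH2 and EIF3F on either side had 439 and 13927 reads in all. The other block ran from OR5T2 to OR8U1 (chr11:56232106-56376553), where 8 genes had 8 reads in all, beside 64 reads over the 3 genes before it (OR8J3 to OR5J2) and 70 over the 4 after it (OR5R1 to OR5M8). NLRP10, a gene of 3904 bp that is no receptor, lies next to the first block and had 8 reads. OR8U1 had a counted length of 54 bp, and OR4C12 and OR9G4 were the zero-read members outside the blocks. Of the 11 genes, 4 shared no run of 50 bases with another receptor gene and 2 shared more than 10% of theirs.

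Genes that serve olfactory receptors were read out of the same fits. Of 13 genes of olfactory signalling in the tables, 12 were tested in DLD-1. Of these 7 were called higher and 3 lower, beside 32.2% and 35% of all models tested. Their median log2 fold change was 1.82, beside -0.06 for all models. GNAL, which encodes the G protein subunit that couples the receptors to adenylyl cyclase, had 598, 720, 1357 and 1244 reads (2.24, adjusted p = 0.0101). CNGB1, a subunit of a cyclic nucleotide-gated ion channel, had 84, 224, 376 and 429 reads (2.56, adjusted p = 0.0351). PDE1C, which breaks down cyclic nucleotides in sensory cilia, had 792, 1793, 4856 and 4270 (2.98, adjusted p = 0.0198). GNG13, a G protein gamma subunit, had 1, 0, 7 and 8 reads (adjusted p = 0.0202). It met the count cutoff in the auxin libraries alone, so its call is no independent support for a rise. When scaled to silent genes GNAL (0.60, adjusted p = 0.390), CNGB1 (1.02, adjusted p = 0.126) and PDE1C (1.46, adjusted p = 0.0605) lost their calls, GNG13 kept its call (adjusted p = 0.0109), and 1 gene of the list was called higher and 3 lower. RIC8B, a chaperone of the olfactory G protein that many cells transcribe, was lower in DLD-1 (6084, 4126, 734 and 772 reads, -1.40, adjusted p = 0.00785) and higher in HCT116 TOP2B-/- (2863, 2961, 3766 and 3504 reads, 0.36, adjusted p = 0.0378). GNAS was the other of 10 tested genes called in HCT116, at 7095, 8749, 5031 and 4689 reads (-0.67, adjusted p = 0.0493). In that comparison 3.41% of all models tested were called in either direction. Neither HCT116 call held when scaled to silent genes (RIC8B 0.17, adjusted p = 0.679, and GNAS -0.86, adjusted p = 0.103), under the replicate block (adjusted p = 0.203 and 0.189), or without TOP2B-/- 1 (0.268 and 0.225) or TOP2B-/- 2 (0.424 and 0.313). RIC8B also lost its call without control 2 (adjusted p = 0.0811) and GNAS without a count filter (adjusted p = 0.0558).

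Of 9 genes for receptor folding and transport, 7 were tested in DLD-1, with 4 called higher and 1 lower, and none of the 4 tested in HCT116 was called. Over all models tested in DLD-1, 32.2% were called higher and 35% lower. RTP1 and RTP2, which carry receptors to the cell surface, had 9, 13, 26 and 20 reads and 5, 7, 19 and 21 reads in DLD-1 (2.30 and 2.999, adjusted p = 0.0331 and 0.0227). RTP1 and RTP2 met the count cutoff in the auxin libraries alone, so their calls are no independent support for a rise. REEP1 and REEP2 were called at 2.04 and 1.71 (adjusted p = 0.0218 and 0.0240). All 4 calls ended when scaled to silent genes, where RTP1 was at 0.68 (adjusted p = 0.322), RTP2 at 1.34 (0.0824), REEP1 at 0.42 (0.540) and REEP2 at 0.0084 (0.990), with 2 genes of the list called lower. Of 14 regulators of receptor choice, 6 were called higher and 3 lower in DLD-1 (median -0.14), and none of the 13 tested in HCT116. The homeobox genes LHX2 (7, 28, 95 and 103 reads) and EMX2 (8, 16, 52 and 61) were higher by 3.66 and 3.46, and EBF1 and EBF3 by 2.69 and 2.66 (adjusted p = 0.0189 to 0.0299 for the 4). LHX2 and EMX2 did not meet the count cutoff in control 1. Scaled to silent genes, LHX2 and EMX2 kept their calls (2.13 and 1.85, adjusted p = 0.00166 and 0.00728), EBF1 and EBF3 did not (1.17 and 1.14, adjusted p = 0.122 and 0.0966), and 2 regulators were called higher and 7 lower. The 3 called lower, ATRX, KDM1A and EHMT1, encode chromatin proteins that most cells make.

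Markers of cell types that a colon cancer line should lack were called higher in DLD-1 together with the members. Of the neuronal markers 8 of 10 tested genes were called higher (median 2.37), of the olfactory sensory neuron markers 6 of 8 (2.20), and of blood and stromal markers 6 of 10 (2.39), with none lower in these lists. Over all models tested, 32.2% were called higher and 35% lower. Some of the markers, such as NEFL and COL3A1, met the count cutoff in the auxin libraries and not in both controls, so these counts do not measure how many changed. Scaled to silent genes, the numbers called higher were 1, 1 and 2, with 1 neuronal marker lower (medians 0.80, 0.57 and 0.83). Their summed levels were 1.31, 1.80, 4.70 and 6.69 CPM per kb for neurons and 0.382, 0.927, 5.57 and 7.18 for blood and stromal cells. TUBB3 alone gave 1.04, 0.900, 1.30 and 1.33 CPM per kb of the neuronal sums, and edgeR did not call it (-0.21, adjusted p = 0.477). Of the colon epithelial markers 1 of 14 was called higher and 7 lower (median -0.98). Among other chemosensory receptors, 5 of 9 tested taste receptor genes were higher and 2 lower (median 1.66). All 3 tested trace amine receptor genes, TAAR2, TAAR5 and TAAR6, were higher (median 2.50). None of these 3 met the count cutoff in both controls, nor did TAS2R16 and TAS2R39 among the taste receptor genes. Their calls are no independent support for a rise. Scaled to silent genes, 1 taste receptor gene was called higher and 4 lower, no trace amine receptor gene was called, and 11 colon epithelial markers were lower. In the 3 lists of genes that serve the receptors and the 3 marker lists of neurons, olfactory sensory neurons, and blood and stromal cells, no gene was called higher without auxin 1 and 1 gene, GNAS, without auxin 2. Library totals and reads over silent genes moved with these rises, and their part in them was not tested.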

How the data were processed

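The authors deposited raw read counts per RefSeq gene model, introns included, in 1 table per cell line, and their processing notes name STAR, DESeq2 and hg38 with no versions. The sources used here state neither strand use nor counting settings. The authors' tables of changed genes (fold changes and p-values) were not used. The study text supplied with the series describes another experiment, so no design was taken from it. Members and gene lists were chosen with earlier results of these data known. Counts were fitted over all models, separately per cell line, with edgeR 4.0.16 (R 4.3.3) by its quasi-likelihood test (filterByExpr, TMM, two-sided, Benjamini-Hochberg adjustment over all models tested, threshold 0.05), which was tested on simulated data first. The SE beside an edgeR log2 fold change is its absolute value divided by the square root of the F statistic, since that test gives no standard error. It is approximate. DESeq2 1.42.0 was an alternative. Levels between genes are reads per kb of counted length. Coordinates are 1-based. Named genes were the 6 highest members per line in controls, up to 6 called members with the largest change in each direction, members over 10 kb, the 3 nearest to the median, up to 4 called genes per list, and every member of a count of 5 or fewer; OR4P4, OR5B21, OVCH2, EIF3F and NLRP10 were named after their values were seen. With 2 replicates per group, same-numbered libraries were not shown to be paired. Precision is limited by depth: a library total of 10739622 to 62626875 reads and, for most members, under 40 reads.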

Additional observations from a re-analysis of the deposited data

How the results depend on the processing

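The number of DLD-1 members called higher (47) was 31 with library sizes set by silent genes and 23 with at least 10 reads in 2 libraries, and 0 to 92 when 1 library was left out. Called lower were 3 under silent gene scaling. The member median (3.02) was 1.40 under silent gene scaling and 2.12 to 4.70 with 1 library left out, and calls over all models (11855) were 2393 to 12732. Of those calls 5678 were higher, against 7544 of 10922 with library totals and 1301 of 11174 under silent gene scaling. In HCT116, calls over all models (521) were 1851 with DESeq2, 50 under silent gene scaling, and 0 to 2519 with 1 library left out, members called higher (0) were 1 with DESeq2 and 0 to 1 with 1 library left out, and the member median (0.21) was 1.33 with DESeq2, 1.29 without a filter and 0.049 to 0.56 with 1 library left out. Same-numbered libraries correlated at 0.56 in DLD-1 and -0.82 in HCT116 with 2 pairs each. The replicate block gave 12963 calls in DLD-1 with 56 members higher, and 0 calls in HCT116. A crossed block, chosen after seeing the data, gave 1808 in HCT116 and no member. Summed over all members, density over silent genes was 0.777 in DLD-1 controls (1.10 by medians, 0.710 without overlapping members) and 2.07 in auxin libraries (1.60 and 1.45), 103 in HCT116 controls (68.0 with the lowest 10% as silent, 0 by medians, 2.998 without overlapping members) and 109 in TOP2B-/- (81.7, 0 and 2.96). Directions turned in DLD-1 for OR2AG2 (0.45) and OR2D2 (0.46) with library totals and for OR52H1 (-0.17), OR6A2 (-1.77) and GNAS (-0.75) under silent gene scaling, and in HCT116 for OR51B2 (-0.059), OR51B4 (-0.026) and OR6A2 (-0.15) under silent gene scaling and for OR2D2 under the replicate block (0.057) and the crossed block (0.029). With 1 library left out they turned in DLD-1 for OR2D2 (-0.72 to 0.33) and OR6A2 (-0.29 to 0.41), and in HCT116 for OR2D2 (-0.68 to 0.76), OR6A2 (-0.024 to 0.055) and OR9Q1 (-0.14 to 1.27), all uncalled. The cause was not tested. Low counts limit what can be seen of most members.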
